A study of Mus musculus with 17 samples.

Results

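The genes described here are the 105 rows, of 28670 genes in the per-sample tables, whose symbols mark subunits of the oxidative phosphorylation system: names starting with Nduf, Uqcr or Atp5, the 4 succinate dehydrogenase genes, Cycs, Cyc1, the Cox4 to Cox8 families, and the mitochondrially encoded mt-Nd, mt-Co, mt-Atp and mt-Cytb genes. They were chosen by name and not by expression. Of these, 92 are nuclear and 13 mitochondrial. By complex, 43 belong to complex I, 4 to complex II, 10 to complex III, 22 to complex IV and 17 to complex V, and Cycs is cytochrome c. The name rule also takes in 4 complex I assembly factors (Ndufaf1 to Ndufaf4) and 4 genes that carry such a name without being classed here as subunits (Cox4nb, Cox7a2l, Atp5s and Atp5sl).

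RNA sequencing covered 17 mouse cell samples in 7 groups. Wild-type embryonic stem cells (WT ESC, n = 4), wild-type induced pluripotent stem cells (WT iPSC, n = 3), partially reprogrammed iPSC from clone B1 (piPSC, n = 2), wild-type embryonic fibroblasts (MEF, n = 2), Nanog-/- ESC (n = 2) and 2 Nanog-/- iPSC clones, G2 and G5 (n = 2 each), were measured. Reprogrammed cells came from fibroblasts given retroviruses for Klf4, Oct4 and Sox2, in some cases also c-Myc. Colonies of the Nanog-/- iPSC were picked on day 20, and no day is listed for WT iPSC and piPSC. Nanog-/- fibroblasts were sorted by GFP from chimaeric embryos made with the Nanog-/- ESC, so the null iPSC descend from that line. The protocol text gives feeders with 2i + LIF for the pluripotent lines and 10% FBS for MEF. The sample codes carry the prefix AC for 11 samples of strain 129/B6 (v6.5) and JI for 6 samples of strain c57/b6, called here batches AC and JI. WT ESC (2 and 2 samples) and WT iPSC (1 and 2 samples) occur in both, MEF only in JI, and piPSC and all Nanog-/- cells only in AC. Strain, batch prefix and, for iPSC, passage (6 in AC, 10 to 15 in JI) cannot be told apart. Passage also differs in other comparisons: WT ESC are at 10 to 15, Nanog-/- ESC at 6 and MEF at 2, so genotype or cell type and passage cannot be told apart there. Each clone or line stands for itself, and since the labels do not tie samples to separate cultures, the tests reflect only sample-to-sample spread, possibly technical.

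Fragment totals ran from 7.80 M to 43.5 M per sample. Nanog was at 270.1 to 762 FPKM (fragments scaled to transcript length and library size) in WT ESC and WT iPSC, 27.2 to 49.5 in Nanog-/- samples, 2.91 and 3.12 in piPSC, and 0.0539 and 0.242 in MEF; where the deletion lies within the transcript was not examined. The 10 pluripotency markers summed to 0.996 and 1.01 FPKM in MEF, with none reaching 1, against 6745 to 9202 in AC WT ESC and WT iPSC and 12460 to 20526 in JI. Their sum was 2651 to 4608 FPKM in Nanog-/- samples and 7087 and 7472 in piPSC. The 15 fibroblast markers summed to 9309 and 9345 FPKM in MEF, 274 to 434 in AC wild-type pluripotent samples, 1002 to 1473 in JI, 790 to 1823 in Nanog-/- samples and 211 to 264 in piPSC. These sums hide differences within the lists. In JI the fibroblast sum rests on Vim (728 to 1001 FPKM) and S100a4 (150.4 to 319.5); of the 15 markers 10 were lower and 3 higher in JI than AC (median -1.09), with Col1a1 at 6.06 to 8.44 against 46.8 to 63. In piPSC 5 and 7 of the 15 fibroblast markers reached 1 FPKM, 10 were lower than in WT iPSC, and 9 of 10 pluripotency markers were lower too. The remaining marker, Pou5f1 (Oct4), was higher, at 6975 and 7303 FPKM in piPSC against 640 in AC WT iPSC, and makes up most of the piPSC sum. The part of other cell types in the results was not tested.

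Oxidative phosphorylation couples electron transfer to ATP synthesis at the inner mitochondrial membrane. Complex I accepts electrons from NADH and complex II from succinate, complex III passes them through cytochrome c to complex IV, which reduces oxygen, and complex V uses the resulting proton gradient to make ATP. Complexes I, III, IV and V join subunits of nuclear and mitochondrial genes, and complex II is wholly nuclear. Some kinds of pluripotent cells are known for relying strongly on glycolysis, which was not measured here. In bulk RNA, fewer cells of a type and less RNA per cell cannot be told apart, and transcript levels do not measure respiration.

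Nuclear respiratory factor 1 (NRF1) and the ETS-family factor GABP are known regulators of nuclear respiratory genes, so promoter windows were searched for their motifs. RefSeq windows on build GRCm38.p6, from 250 bases before to 50 after a gene's start, matched 75 of the 92 nuclear members. The NRF1 letters, GCGC followed by any base and then TGCGC, on either strand, stood in 18 of those 75 (24%) against 5.188% of 27025 genes with a window. The letters CCGGAAG (GABP/ETS), on either strand, stood in 17 (22.67%) against 9.928%. Complex V held 6 NRF1 matches in 14 windows, complex I 7 in 32, and complex IV 1 in 13. The shares over all genes include genes not expressed here and were not matched to the members by expression or base composition. A match is a description of letters and not a measured site. The windows below are those of members named in the results: Atp5g2, Ndufa6, Cox6b1 and its isoform gene Cox6b2, and Cox7a1. Atp5g2 and Ndufa6 were called between the null clones, but these calls did not hold with a sample of either clone left out. Capitals mark a motif match on either strand. They lie at chr15:102670998-102671297 (minus strand, Atp5g2), chr15:82354242-82354541 (minus, Ndufa6), chr7:30626065-30626364 (minus, Cox6b1), chr7:4753045-4753344 (minus, Cox6b2) and chr7:30183921-30184220 (plus, Cox7a1).
Atp5g2: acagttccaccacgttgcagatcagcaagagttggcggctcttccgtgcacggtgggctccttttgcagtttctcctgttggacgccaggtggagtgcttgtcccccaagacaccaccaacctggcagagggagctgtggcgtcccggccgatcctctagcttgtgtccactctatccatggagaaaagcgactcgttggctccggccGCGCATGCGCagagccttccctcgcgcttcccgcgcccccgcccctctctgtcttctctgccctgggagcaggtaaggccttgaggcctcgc
Ndufa6: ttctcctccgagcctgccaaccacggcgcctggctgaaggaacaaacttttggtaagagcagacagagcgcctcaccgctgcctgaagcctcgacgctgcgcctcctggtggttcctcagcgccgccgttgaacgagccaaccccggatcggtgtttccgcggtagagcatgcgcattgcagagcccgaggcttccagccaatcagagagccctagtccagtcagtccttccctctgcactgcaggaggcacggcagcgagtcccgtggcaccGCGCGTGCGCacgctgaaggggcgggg
Cox6b1: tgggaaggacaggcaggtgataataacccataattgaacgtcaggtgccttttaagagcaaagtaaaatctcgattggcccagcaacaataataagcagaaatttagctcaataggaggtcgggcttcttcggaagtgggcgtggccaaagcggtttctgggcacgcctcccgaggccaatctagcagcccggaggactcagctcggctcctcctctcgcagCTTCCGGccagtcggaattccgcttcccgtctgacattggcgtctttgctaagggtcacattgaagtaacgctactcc
Cox6b2: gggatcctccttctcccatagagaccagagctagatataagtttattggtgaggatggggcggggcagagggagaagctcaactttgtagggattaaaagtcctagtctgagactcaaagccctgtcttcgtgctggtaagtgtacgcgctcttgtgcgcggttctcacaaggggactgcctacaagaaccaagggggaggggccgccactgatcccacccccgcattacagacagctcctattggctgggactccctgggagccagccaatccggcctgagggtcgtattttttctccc
Cox7a1: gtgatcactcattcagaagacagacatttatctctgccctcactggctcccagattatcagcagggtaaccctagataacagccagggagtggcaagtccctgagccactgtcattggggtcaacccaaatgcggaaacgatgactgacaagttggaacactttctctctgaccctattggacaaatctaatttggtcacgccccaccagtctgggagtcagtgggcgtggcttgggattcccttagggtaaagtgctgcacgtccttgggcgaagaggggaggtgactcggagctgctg
Atp5g2 and Ndufa6 each hold 1 NRF1 match and Cox6b1 holds 1 GABP/ETS match. Neither set of letters is in the Cox6b2 or Cox7a1 window.

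Levels differed widely among subunits of a complex. As means over all samples, nuclear complex I genes ran from 27.9 FPKM (Ndufa11) and 45.6 (Ndufs1, a core iron-sulfur subunit) to 297 (Ndufa3) and 517 (Ndufa7). The complex II genes lay close together, at 76.0 (Sdhc), 83.0 (Sdha), 122 (Sdhb) and 153 (Sdhd). In complex III Uqcrfs1, the Rieske protein, was lowest at 84.5 and Uqcrc1 next at 133, while Uqcr10 (419.8) and Uqcrh (434) were highest and Cyc1, cytochrome c1, stood at 139. In complex IV Cox7c (809) and Cox6b1 (649) were highest in this mean, which the high JI samples weight, while Cox4i1 led in MEF (275 and 266) and in Nanog-/- ESC (489.9 and 474); Cox8b (0.114) and Cox8c (0.390) were hardly detected. In complex V Atp5b, the catalytic beta subunit, was highest at 1140.2 and Atp5g2, a c-ring gene, next at 748, with Atp5d (156) and Atp5f1 (221) lowest. Cycs averaged 78.6. Mitochondrial members stood far above most nuclear ones, from 1707 (mt-Nd5) to 14177 (mt-Co2) among the 8 tested.

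Of the 105 members 99 could be tested (91 nuclear, 8 mitochondrial). Cox8b and mt-Nd4l did not reach 1 FPKM in 2 samples. mt-Co1, mt-Co3, mt-Atp6 and mt-Atp8 carry a status other than OK in some samples and are listed at 0 there: mt-Co1 in all 15 samples other than MEF, the other 3 in both piPSC. A 0 there is a failed estimate. A member is called where limma's Benjamini-Hochberg adjusted p over 15298 tested genes was under 0.05, and differences are on the log2(FPKM + 1) scale, which understates changes of low genes. The members that passed this filter are not all members.

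The 92 nuclear members took 0.569% and 0.574% of assigned fragments in MEF, 0.988% and 1.07% in piPSC, 1.13% to 1.21% in Nanog-/- samples, 1.30% to 1.40% in AC WT ESC and WT iPSC, and 1.90% to 2.27% in JI. The MEF samples were lowest and the JI pluripotent samples highest, and these ranges did not overlap. The 9 mitochondrial members measured in every sample took 1.37% and 1.40% in MEF and 2.04% to 3.19% elsewhere.

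**Figure D1:**
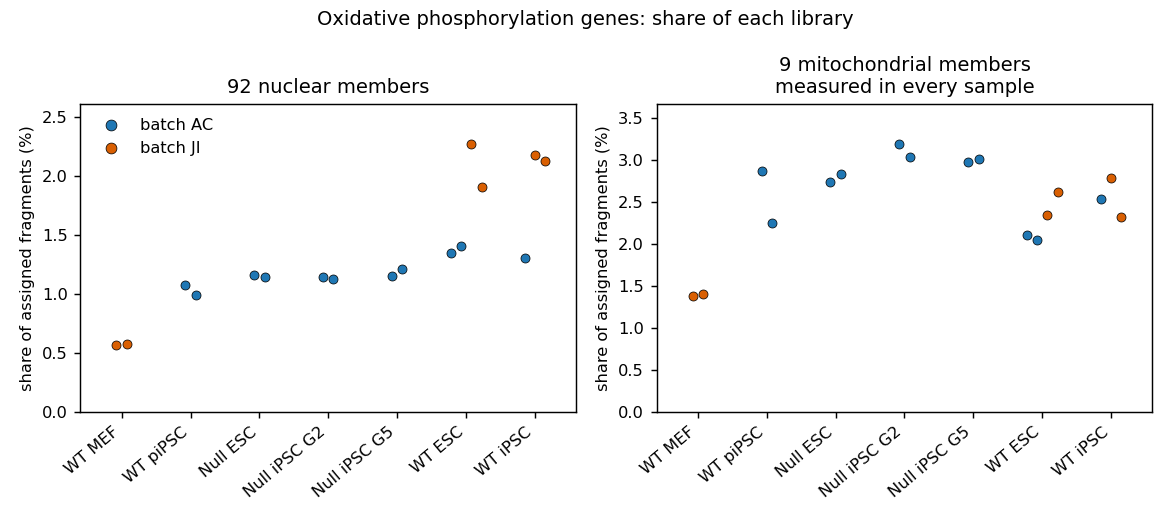
Share of assigned fragments (percent, y axis) taken by the 92 nuclear members (left) and by 9 mitochondrial members (right), 1 point per sample, by group and batch. MEF samples are lowest in both panels, and JI WT ESC and WT iPSC, at 1.90% to 2.27%, are highest in the nuclear panel.

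Fibroblasts and pluripotent cells gave the widest separation, by member median and by members called. Between MEF and WT ESC, 94 of 99 members fell and 1 rose, where 80.1% of all tested genes were called, 41.3% lower and 38.8% higher. The median difference was -2.35 over members and -0.04 over all genes. All 36 nuclear complex I, 4 complex II, 9 complex III and 15 complex V members fell, as did 17 of 18 in complex IV. Per-group nuclear medians were -2.54 (complex I), -1.81 (II), -2.32 (III), -2.84 (IV) and -2.45 (V). Ndufa7, an accessory complex I subunit, had 95.8 and 89.6 FPKM in MEF against 1790.1 and 1155 in JI WT ESC and 373 and 367 in AC WT ESC. Its difference was -4.03 (SE 0.16, limma adjusted p = 1.4e-10), and MEF lay below both batches. Ndufv3 (-4.39), Ndufa6 (-4.35), Ndufs6 (-3.89), Atp5g2 (-3.72) and Cox7c (-3.60) also fell strongly. Changes were smaller for Ndufs1 (-0.43), Cycs (-0.77) and Sdha, the flavoprotein of succinate dehydrogenase (-0.78). Ndufaf4, an assembly factor, rose from 17.2 to 26.4 FPKM (difference 0.63, SE 0.13, limma adjusted p = 6.7e-04). Not called were Cox6a2, Cox4nb, mt-Cytb and mt-Nd4. The fit sets MEF, through the batch term, against a JI level of WT ESC to which AC samples and WT iPSC also contribute. With batch JI alone the member median was -2.33. Summed FPKM in JI was 1084760 and 1614850 in WT ESC and 497753 and 504255 in MEF. Quantile normalization moved the member median to -1.46, with 8 higher and 85 lower. Cytosolic ribosomal protein genes fell further than the members, 84 of 84 with a median of -3.05, and took 4.13% of fragments in both MEF samples against 21.4% and 28.9% in JI WT ESC. Macrophage markers were higher in MEF in 8 of 9 (sums 655 and 661 FPKM against 76.3 and 105). The part of either in the result was not tested.

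**Figure D2:**
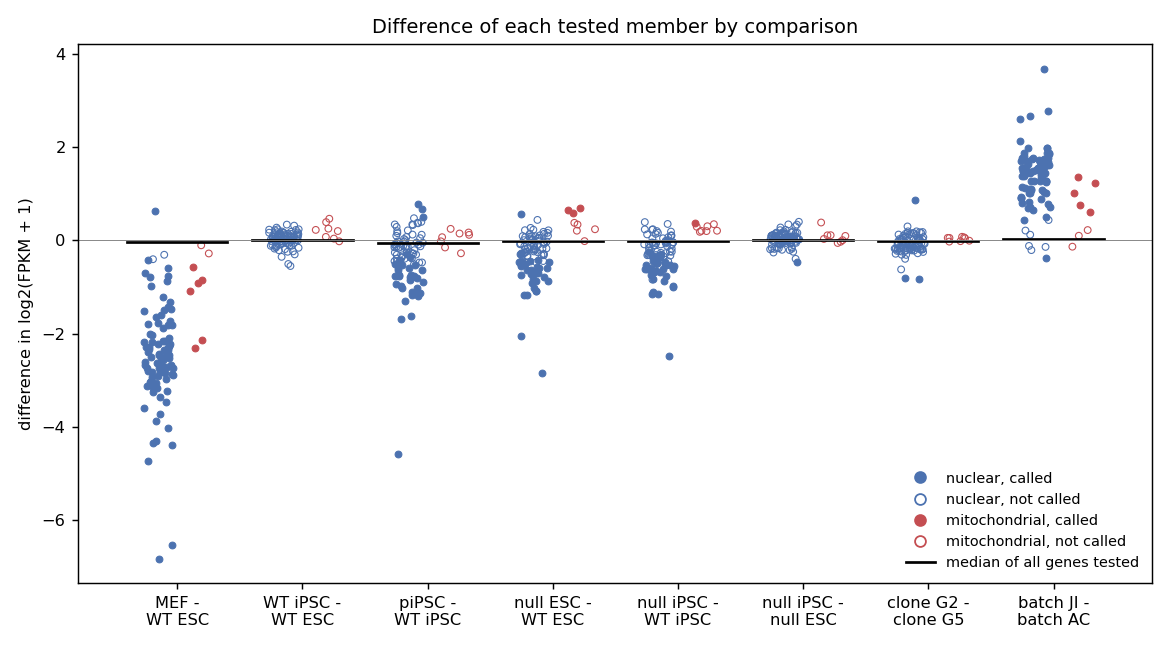
Difference in log2(FPKM + 1) of each tested member (y axis) in 8 comparisons (x axis). Blue points are nuclear and red points mitochondrial members, filled where called; black lines are medians of all genes tested. Members lie at a median of -2.35 for MEF minus WT ESC and 1.40 for JI minus AC.

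The difference between batches was of similar breadth. Among WT ESC and WT iPSC, 89 of 99 members were higher in JI and 1 lower, where 72.4% of all genes were called, 38% higher and 34.4% lower. The median difference was 1.40 over members and 0.03 over all genes. Summed FPKM itself was 579151 to 667351 in the AC samples of these groups and 1084760 to 1614850 in the JI samples. Nuclear members made up 2.50% to 2.88% of that sum in AC and 3.16% to 3.55% in JI. The part of the differing sums in the result was not tested. Under quantile normalization the member median was 0.50 and the split 69 higher and 17 lower. Ndufa4l2 had 82.2 to 146 FPKM in the 4 JI samples and 3.54 to 15.2 in the 3 AC samples, a difference of 3.69 (SE 0.34, limma adjusted p = 6.3e-07) with no overlap. Atp5e, the epsilon subunit of ATP synthase (2.68), and Ndufv3 (2.62) followed among abundant genes. Ndufs1 went the other way (-0.38), and Sdha (-0.14, limma adjusted p = 0.053) and Cox7a1 (0.44, limma adjusted p = 0.068; -0.31 under quantile normalization) were not called. Cytosolic ribosomal protein genes moved with this difference: 79 of 84 were higher in JI, and they took 21.4% to 28.9% of fragments there and 8.58% to 10.5% in AC wild-type pluripotent samples. Their part in the result was not tested.

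Transcript length was set against the batch difference over 91 nuclear members, as a description across genes that share libraries. With the median length of a gene's protein-coding GENCODE transcripts, the measure chosen first, Pearson's r was -0.23 and Spearman's rho -0.29. That median includes partial transcript models and gave 651 nt for Ndufs1, whose longest is 2661 nt. The longest transcript, substituted after the first value had been seen, gave r = -0.42 and rho = -0.43, so the stronger value rests on a measure picked second. By the first measure the median difference was 1.56 for 45 members under 700 nt, 1.39 for 38 of 700 to under 1500 nt, and 0.91 for 8 of 1500 nt or more. By the longest transcript it was 1.57 (29 members), 1.56 (36) and 1.01 (26).

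**Figure D3:**
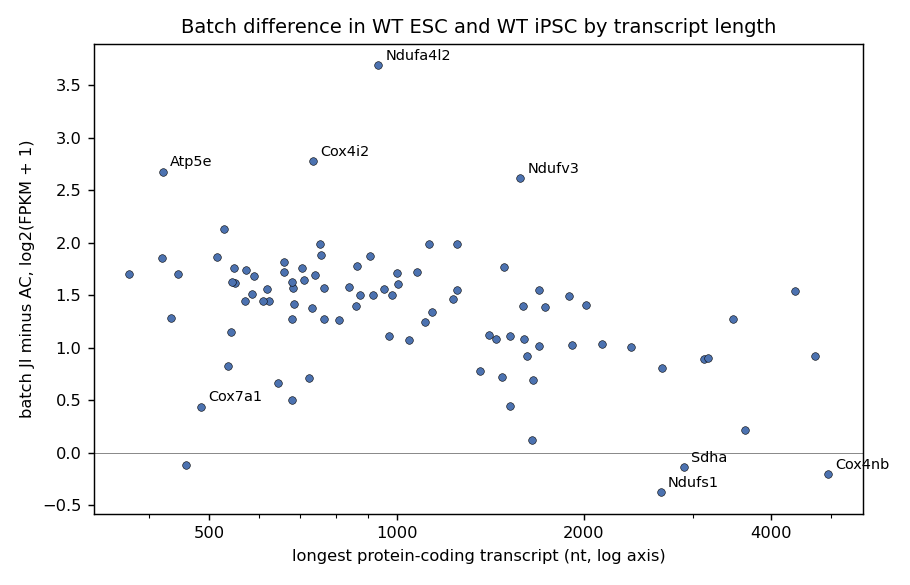
Batch difference (JI minus AC, log2(FPKM + 1), y axis) of the 91 tested nuclear members against the length of their longest protein-coding transcript (nt, log x axis), the length measure added second. Ndufs1, Sdha and Cox4nb lie below 0 among the long transcripts; r is -0.42 here and -0.23 with the median length chosen first.

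The complex IV isoform genes Cox7a1, Cox6b2, Ndufa4l2 and Cox4i2 varied more over the 17 samples than their main paralogs. Cox7a1, known as the heart and skeletal muscle isoform of subunit 7A, had 108 to 251 FPKM in WT ESC and WT iPSC of both batches. It had 18 to 29.7 FPKM in Nanog-/- samples, 4.47 and 4.75 in piPSC, and 1.11 and 0.498 in MEF. These 4 ranges did not overlap. The Cox7a1 difference was -6.84 (SE 0.25) for MEF minus WT ESC, -4.58 (SE 0.27) for piPSC minus WT iPSC, -2.84 (SE 0.25) for Nanog-/- ESC minus WT ESC and -2.49 (SE 0.24) for Nanog-/- iPSC minus WT iPSC. Limma adjusted p-values were 4.9e-11, 1.3e-08, 1.2e-06 and 2.3e-06. Cox7a2, the widely expressed isoform, had 181.7 to 222 FPKM in AC wild-type pluripotent samples and 475 to 820 in JI ones. It had 129.7 to 158 in piPSC and Nanog-/- samples, and 67.8 and 71.7 in MEF. Between batches the wild-type pluripotent ranges of Cox7a2 did not overlap, while those of Cox7a1 did.

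Cox6b2, known as the testis isoform of subunit 6B, had 76.4 to 89.7 FPKM in AC WT ESC and WT iPSC, 176 to 315 in JI, 21.7 and 28.9 in piPSC, 25.5 to 52.5 in Nanog-/- samples and 8.02 and 7.93 in MEF. It fell in MEF (-4.73), piPSC (-1.69), Nanog-/- ESC (-1.18) and Nanog-/- iPSC (-1.15). Ndufa4l2, a paralog of the complex IV subunit gene Ndufa4, had 0.695 and 0.372 FPKM in MEF and 1.36 to 3 in Nanog-/- samples. It fell in MEF (-6.54) and Nanog-/- ESC (-2.06). WT iPSC of batch AC, at 3.54, lay near the Nanog-/- iPSC and below both piPSC samples (4.42 and 9.49). Cox4i2 had 12.1 to 20.8 FPKM in JI and 2.85 and 3.37 in AC WT ESC, was 0.344 or lower in AC WT iPSC, piPSC, MEF and Nanog-/- iPSC, and 0.306 and 0.506 in Nanog-/- ESC. Cox6a2, Cox7b2, Cox8b and Cox8c stayed below 4 FPKM in every sample.

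**Figure D4:**
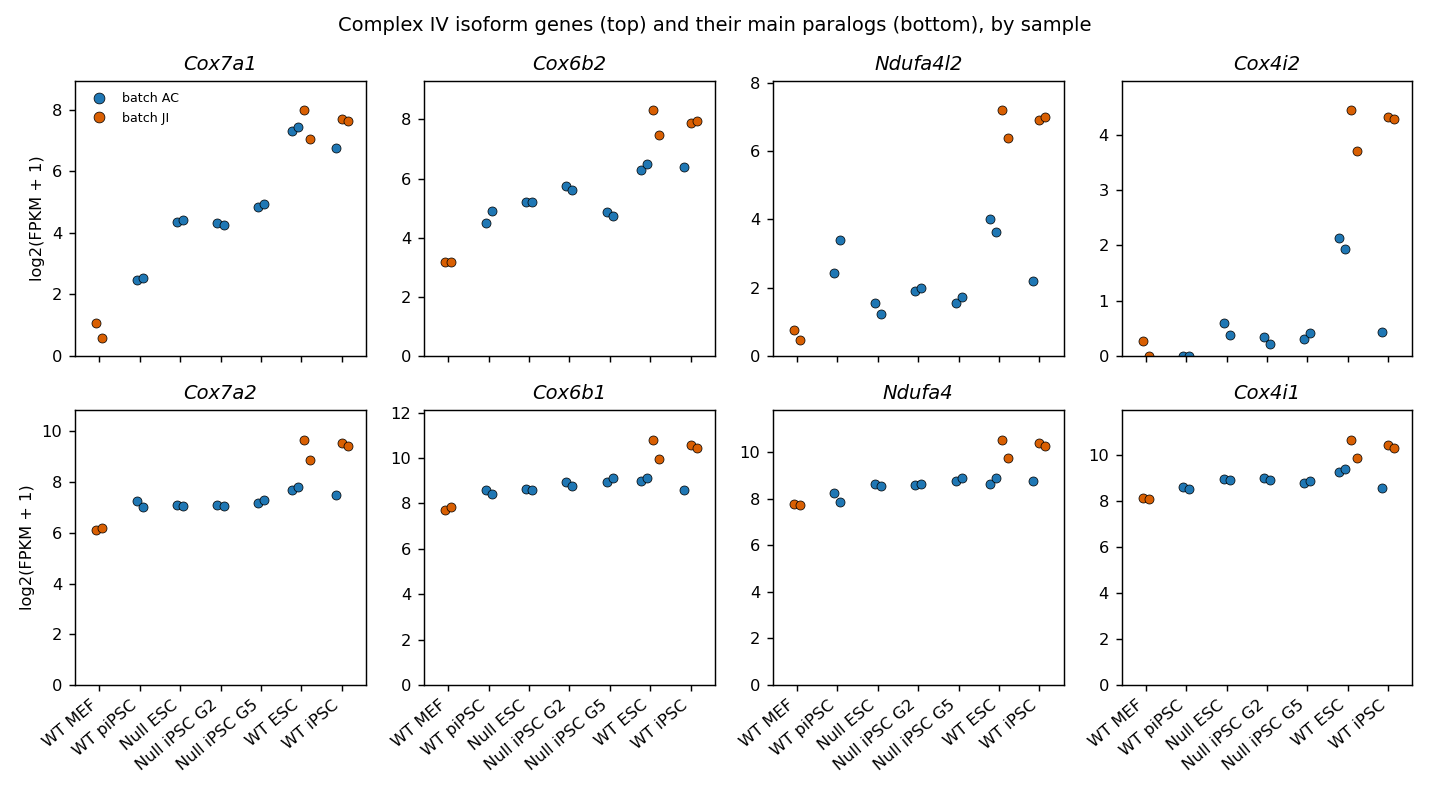
Levels of 4 isoform genes (top) and their main paralogs (bottom) as log2(FPKM + 1) on the y axis, 1 point per sample by group (x axis) and batch (color). Cox7a1 sits at 108 to 251 FPKM in WT ESC and WT iPSC and at 29.7 FPKM or less in every other sample.

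WT iPSC and WT ESC did not separate. No member was called by limma, where 1.02% of all genes were (0.641% higher, 0.379% lower), and 3 had an unadjusted p under 0.05 (Cox7b2, mt-Nd1 and mt-Nd3); edgeR called 1 with TMM scaling and 0 with RLE. The member median was 0.06 against 0.01 over all genes, and single differences ran from -0.55 to 0.47. A p over the threshold does not show that the levels are alike: without WT ESC 3 the count was 15 of 99 (17.5% of all genes called), and without WT ESC 4 it was 20 of 99 (11.8% of all genes).

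In piPSC against WT iPSC, 35 members fell and 3 rose, 38.38% of those tested, where 64.7% of all genes were called (30.5% higher, 34.2% lower). That share is below the background. The median was -0.28 over members and -0.06 over all genes, and quantile normalization gave -0.093 over members, with 17 higher and 32 lower. Without the batch term the member median was -1.16. That fit sets the AC piPSC against WT iPSC of both batches, so its values include the batch difference. Complex IV had 12 of 18 tested nuclear members lower, complex III 5 of 9, complex V 8 of 15 and complex I 7 of 36. Cox5a, a nuclear complex IV subunit, had 147 and 147 FPKM in piPSC against 437 in the AC WT iPSC and 707 and 773 in JI. Its difference was -1.63 (SE 0.18, limma adjusted p = 4.1e-06). Uqcrb (-1.31), Uqcrq (-1.20) and Uqcr10 (-1.13) of complex III, Atp5g1 (-1.14), Atp5b (-0.99) and Cycs (-0.80) also fell. Ndufa8 (0.79), Atp5e (0.67) and Sdhc (0.51) rose, and each turned negative in the fit without a batch term. The Atp5e call was also lost without WT iPSC 1 (limma adjusted p = 0.088) or piPSC 1 (limma adjusted p = 0.069). Only 1 AC WT iPSC sample stands opposite the 2 piPSC, which are 1 clone. Without piPSC 2 the count of called members was 25, with 56.6% of all genes called. Against WT ESC, 37 members were lower and 6 higher in piPSC, where 65.6% of all genes were called (31.2% higher, 34.4% lower).

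In Nanog-/- ESC against WT ESC, 32 members fell and 4 rose, 36.36% of those tested, where 53.8% of all genes were called (27.4% higher, 26.4% lower). In Nanog-/- iPSC against WT iPSC 34 fell and 1 rose, 35.35%, where 57.4% of all genes were called (28.7% in each direction). Both shares lie below their backgrounds, although the members lower (32.32% and 34.34%) lie slightly above the background for that direction. Member medians were -0.19 and -0.24, against -0.01 and -0.02 over all genes. Under quantile normalization the member medians were -0.10 and -0.091, against -0.043 and -0.057 over all genes, with 16 higher and 36 lower in ESC and 18 higher and 37 lower in iPSC. Without the batch term they were -0.84 and -1.16, values that include the batch difference, since wild-type samples of both batches then stand against AC samples. Ndufv2, a core complex I subunit, had 77.5 and 83.6 FPKM in Nanog-/- ESC against 162 and 184 in AC WT ESC, and 75.8 to 91.2 in the null iPSC against 181 in AC WT iPSC. Its differences were -1.08 and -1.14. Ndufa7 (-1.02 and -0.82), Cox5a (-0.79 and -0.75), Ndufaf2 (-0.87 and -0.99) and Sdhb (-0.63 and -0.48) fell in both. Ndufb4 (-1.08), Ndufa13 (-0.92) and Ndufa6 (-0.82) fell in ESC. Atp5b (-0.67) and Cycs (-0.54) fell in iPSC, and without WT iPSC 1, the AC sample, their limma adjusted p-values were 0.052 and 0.057. The number called in ESC ranged from 20, without Nanog-/- ESC 1, to 58, without WT ESC 4; it was 21 without Nanog-/- ESC 2 and 22 and 23 without WT ESC 1 and 2. The share of all genes called moved along, from 39.6% without Nanog-/- ESC 1 to 61% without WT ESC 4. The Nanog-/- difference itself differed between iPSC and ESC for 1 member, Cox7b2, where 11% of all genes were called (5.79% higher, 5.24% lower). Cytosolic ribosomal protein genes fell alongside, 67 of 84 in ESC and 70 of 84 in iPSC, and so did 7 of 10 pluripotency markers in each. Fibroblast markers were higher in 15 of 15 (ESC) and 14 of 15 (iPSC). Primitive endoderm markers were higher in 10 of 10 in both (medians 3.12 and 2.80), summing to 743 to 1102 FPKM in Nanog-/- samples against 191 to 215 in AC WT ESC and WT iPSC. These sums rest largely on Sparc, at 522 to 801 and 176 to 197 FPKM. The sum on this list was higher still in MEF, at 1898 and 1911 FPKM. Trophoblast markers were higher in 5 of 7 in both. The part of these lists in the result was not tested.

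Among Nanog-/- cells few members differed. Between the null iPSC and the null ESC 1 of 99 was called, where 10.8% of all genes were (6.19% higher, 4.62% lower): Cox7b2 (-0.47), at 0.0988 to 0.275 FPKM in iPSC and 0.617 and 0.768 in ESC. Between clones G2 and G5, 3 of 99 were called, where 5.36% of all genes were (3.14% higher, 2.22% lower). Atp5g2 had 339.8 and 314 FPKM in G2 and 557 and 581 in G5 (-0.80, limma adjusted p = 0.012). Ndufa6 had 119 and 107 in G2 and 193 and 210.5 in G5 (-0.83, limma adjusted p = 0.028). Cox6b2 had 52.5 and 48.3 in G2 and 28.4 and 25.5 in G5 (0.88, limma adjusted p = 0.027). None of these 4 calls held with any 1 sample of the compared groups left out.

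Mitochondrially encoded members did not follow the nuclear ones in every comparison. In MEF 6 of 8 fell, where 80.1% of all genes were called, 41.3% lower and 38.8% higher. There mt-Co2, a catalytic-core subunit of complex IV, was at 4788 and 5001 FPKM against 20773 and 26936 in JI WT ESC (-2.31). mt-Nd6 fell by 2.15 on the log2 scale but was 0.55 under quantile normalization. mt-Nd6 lies on the strand opposite most mitochondrial genes, and the labelled kit does not mark strand, so its reads cannot be told apart from antisense ones. In Nanog-/- ESC mt-Nd1 (0.59), mt-Nd2 (0.65) and mt-Nd3 (0.70), all complex I subunits, rose, while 32 of 91 nuclear members fell. Of all genes 53.8% were called in that comparison, 27.4% higher and 26.4% lower. mt-Nd1 had 4342 and 4404 FPKM in Nanog-/- ESC against 2724 and 2737 in AC WT ESC, and 4340.3 in AC WT iPSC, so that wild-type sample reached the null level. In Nanog-/- iPSC mt-Nd2 alone of the 8 was called (0.37, limma adjusted p = 0.038), and that call was lost without WT iPSC 3 or any 1 null iPSC sample. The calls of mt-Nd1 and mt-Nd3 were lost without either Nanog-/- ESC sample or without WT ESC 1, and that of mt-Nd1 also without WT ESC 2. In piPSC none of the 8 was called by limma against WT iPSC, where 64.7% of all genes were. For Nanog-/- iPSC against WT iPSC that share of all genes was 57.4%.

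**Figure D5:**
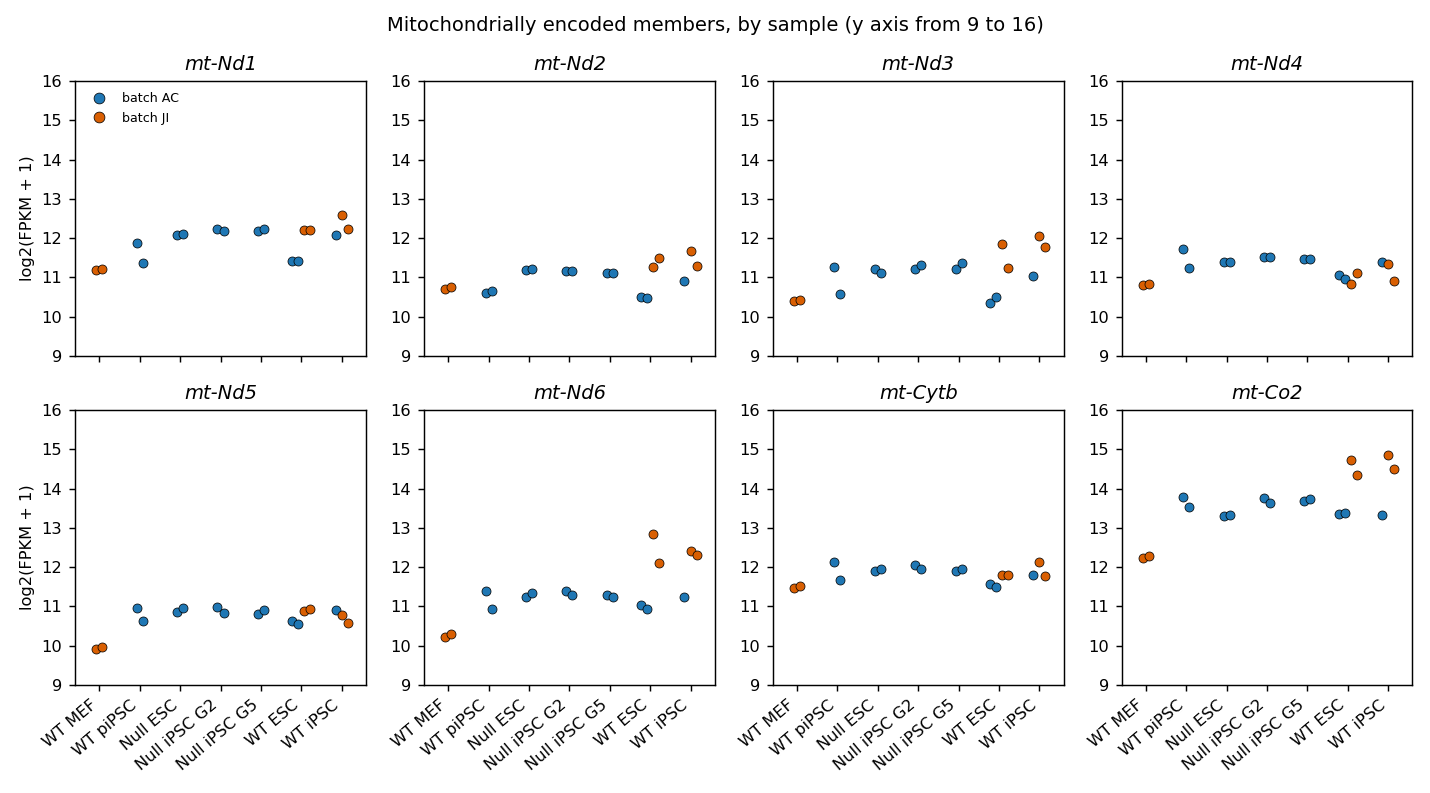
Levels of the 8 tested mitochondrial members as log2(FPKM + 1) on a y axis that does not start at 0, 1 point per sample by group (x axis) and batch (color). mt-Co2 and mt-Nd6 are highest in JI WT ESC and WT iPSC, and mt-Nd1 of AC WT iPSC (4340.3 FPKM) lies beside the Nanog-/- samples.

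The other mitochondrial gene lists were counted in MEF against WT ESC, where 41.3% of all genes were called lower and 38.8% higher. Mitochondrial ribosomal protein genes fell in 70 of 76 and rose in 1 (median -1.63). Of 26 assembly factors outside the member names 15 fell and 9 rose (median -0.44), with the copper chaperone Cox17 at -2.99 and Nubpl at -3.14. Of 22 biogenesis regulators 9 fell and 7 rose, near those shares, with Tfb1m at -3.10. Of 18 genes of the tricarboxylic acid cycle and pyruvate dehydrogenase 12 fell and 5 rose, with Idh3g at -2.47. Of 13 import and outer membrane genes 10 fell and 3 rose, and of 6 uncoupling and superoxide genes 5 fell, with the ATPase inhibitor Atpif1 at -3.77. In piPSC against WT iPSC 4 assembly factors fell and 6 rose, with Cox19 at 2.09; 6 biogenesis regulators fell and 3 rose, with Nrf1 at -1.73; 5 genes of the tricarboxylic acid cycle list fell and 5 rose, with Suclg2 at 1.81; and 8 import genes fell and 1 rose. For piPSC against WT iPSC the shares of all genes called were 34.2% lower and 30.5% higher. In Nanog-/- ESC the counts lower and higher were 6 and 5 for assembly factors and 10 and 4 for biogenesis regulators. They were 9 and 1 for the tricarboxylic acid cycle list. Of all genes 26.4% were lower and 27.4% higher in Nanog-/- ESC.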

How the data were processed

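Per the labels' protocols, Trizol RNA with an integrity number above 7.5, about 250 ng each, went into TruSeq v2 libraries. Per the submitters' processing notes, the tools were CASAVA, Cuffdiff 2.1.1, Bowtie2 2.0.5 and TopHat2 2.0.7, with builds mm10 and NCBIM37 named without a role. The deposited tables give estimated counts of fragments per gene (97.1% whole within 0.01) and FPKM values scaled by the authors with Cuffdiff, per the file headers. Genes with FPKM of at least 1 in 2 samples and status OK in all were tested on log2(FPKM + 1) with limma 3.58.1 (R 4.3.3): 7 group terms, a batch term, all 17 samples, Benjamini-Hochberg adjustment, threshold 0.05. The code was tested on simulated data. Alternatives used edgeR 4.0.16 on rounded counts, a pseudocount of 0.1, testing without the filter, requiring a mean of 5 FPKM, quantile normalization, no batch term, 1 batch alone, a replicate block and leaving out each sample. Fragment totals of 7.80 M to 43.5 M set the precision. Members and lists were chosen with earlier results of these data known. The transcript length measure was changed after its first result had been seen, and both results are given. Members were named by a fixed rule (largest called differences without overlap, isoform sets, extremes of each complex, all mitochondrial members); a few further ones were named after their values were seen. Duplicate libraries were looked for only between samples of the same group, and none was found. The closest pair was the MEF samples, with a chi-square per gene of 1.582 on fragment counts. Whether that pair is separate libraries or the same library sequenced again cannot be told from this value.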

Additional observations from a re-analysis of the deposited data

Results flagged for a closer look

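mt-Atp8, a small complex V subunit gene, had 2621 FPKM in WT ESC 3 against 5492 to 5781 in the other WT ESC, a sample far from the rest of its group. The group mixes batches: the JI WT iPSC had 3555 and 3189, nearer to WT ESC 3, and WT ESC 4 (5492) was the highest JI pluripotent sample. Chance gives such a gap in about 1 of 20 groups, a figure that does not allow for batch. All 105 members were screened for such a gap in WT ESC and mt-Atp8 alone was flagged, so the flag is no more than that figure gives.

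Cox7b2 was the one member for which the Nanog-/- difference in iPSC and that in ESC differed in a test of the difference itself (-0.81 on the log2 scale by limma, a contrast added after seeing the data), where 11% of all genes were called. Its level was 3.81 FPKM or less in every sample.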

How the results depend on the processing

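Counts of called members stayed within 1.5 times the reported ones in every alternative run for MEF minus WT ESC (81 to 97) and for batch (86 to 92). With batch AC alone, counts rose to 26 for WT iPSC minus WT ESC, 59 for piPSC minus WT iPSC, 63 for Nanog-/- ESC, 54 for Nanog-/- iPSC minus WT iPSC, 13 for null iPSC minus null ESC and 10 for G2 minus G5, while the shares of all genes called were 40.5%, 73.5%, 68.9%, 67%, 29.7% and 18.1%. Leaving out 1 sample gave 0 to 20, 25 to 35, 20 to 58, 27 to 33, 0 to 0 and 0 to 0 in the same order, 94 to 96 for MEF and 89 to 92 for batch. Without the batch term Nanog-/- ESC had 17. Quantile normalization gave 55 for Nanog-/- iPSC minus WT iPSC, 2 for null iPSC minus null ESC and 6 for G2 minus G5. For null iPSC minus null ESC, dropping the filter, requiring a mean of 5 FPKM, edgeR TMM and edgeR RLE each gave 0; dropping the filter gave 1 for G2 minus G5; edgeR TMM gave 1 for WT iPSC minus WT ESC. Replicate numbers did not pair the samples (correlations of deviations from -0.056 to 0.114); with a replicate block the counts were 13 for WT iPSC minus WT ESC, 57 for Nanog-/- ESC, 5 for null iPSC minus null ESC and 6 for G2 minus G5, and changed by less than 1.5 times elsewhere. Directions turned without the batch term for Ndufa8 in Nanog-/- ESC (-0.13) and piPSC (-0.14), Atp5e (-1.11) and Sdhc (-0.092) in piPSC and mt-Nd2 in Nanog-/- iPSC (-0.14). They turned under quantile normalization for mt-Nd4 (2.17) and mt-Nd6 (0.55) in MEF and for Cox7a1 (-0.31) and mt-Nd6 (-0.47) between batches, and for mt-Nd4 in MEF without WT ESC 4 (0.017; leaving out other samples gave down to -0.16). The fit without a batch term sets groups found only in AC against wild-type samples of both batches, so its values include the batch difference. The cause of the turns under quantile normalization or without WT ESC 4 was not tested.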
